A study of Mus musculus with 50 samples.

Results

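The doublecortin and DCLK family was read from 2-color Agilent arrays of mouse hippocampus through its members Dclk1, Dclk2, Dclk3, Dcx and Dcdc2a. These are 5 of the 17635 genes named on the array, found by gene symbol alone, and they were covered by 10 of the 41174 probes: 4 probes of Dclk1, 3 of Dcx and 1 each of Dclk2, Dclk3 and Dcdc2a. The study set male wild-type (WT) C57/BL6j mice against male transgenic (TG) mice of the same background that overexpress δC-DCLK-short, a splice variant of the Dclk1 gene with a constitutively active kinase. All mice were housed alone for 7 days before both hippocampi were taken. The age of the mice and the promoter of the transgene are not given in the sources used here, and the labels do not say whether any probe detects the transgene's own transcript. The 10 arrays held 5 WT and 5 TG mice, each mouse on 2 arrays, in Cy3 on 1 and in Cy5 on the other, and each array paired 1 WT with 1 TG mouse. An array is named by its Cy3 and Cy5 mice, so WT1/TG4 held WT1 in Cy3 and TG4 in Cy5.

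Doublecortin domains bind microtubules and stabilize them, and proteins with these domains act in neuronal migration, axon growth and the transport of vesicles. Dcx is the X-linked founding gene of the family, and its protein is widely used as a marker of newborn neurons, which in the adult hippocampus lie in the dentate gyrus. Dclk1 and Dclk2 encode proteins with doublecortin domains and a serine/threonine kinase domain, and the Dclk1 gene also gives shorter transcripts, among them the DCLK-short kinases without the doublecortin domains. Dclk3 encodes a related kinase, and Dcdc2a encodes a doublecortin-domain protein found at cilia.

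The direction of every ratio below is TG over WT as the arrays are labelled, and that labelling is in doubt. From the expression table accompanying the data, 667 genes and 19 Agilent channels were used, which is only a part of its genes. For each gene, the highest Pearson correlation with any array probe over these channels was taken. Genes were not matched to their own probes. An exchange of the 5 arrays with WT in Cy3 for the 5 arrays with TG in Cy3 gave the higher value for 625 genes. The labels as given did so for 42. The median of these highest correlations was 0.935 after the exchange and 0.822 as labelled. The log2 ratios, each probe centred on its mean over the arrays, were also correlated between arrays. Over the 10 pairs of arrays that share a mouse, the median Pearson correlation was -0.2 as labelled (range -0.557 to 0.675). After the exchange it was 0.056 (range -0.367 to 0.675). Over the 35 pairs that share no mouse, the median was -0.125 as labelled and -0.206 after the exchange. The exchange turns the sign of every ratio and leaves its size as it is, and in the fit over arrays also its p-value and interval width. It assigns channels to other mice, so SE and p change in a fit with 1 value per mouse. Every mouse named below is named as labelled: after the exchange the channels of TG4 would become those of WT5. All 10 arrays were scanned on 1 day, each on a slide of its own. Both arrays with mouse TG4, WT1/TG4 and TG4/WT3, had the widest spread of log2 ratios over all probes (SD 0.321 and 0.384), against 0.138 to 0.226 on the other 8. Median signals of all probes were 109 to 169 in Cy3 and 77.9 to 165 in Cy5, and precision is limited by the small number of arrays.

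No difference between TG and WT mice passed the test for any probe of the family. By limma's moderated test with Benjamini-Hochberg adjustment over all probes, 0 of 10 family probes had a false discovery rate (FDR) of 0.1 or less, against 3053 of all 41174 probes (7.41%). At an unadjusted p under 0.05 the family again gave 0 of 10, against 18.9% of all probes, and the smallest FDR in the family was 0.429, for Dcdc2a. Mean log2 ratios lay between -0.085 and 0.073, with a median of -0.056 in the family and 0.0023 over all probes. The median size of the ratio without its sign was 0.058 in the family and 0.037 over all probes, and the median SD over the arrays was 0.159 and 0.128. The same sign on all 10 arrays was seen for 0 of 10 family probes and for 2.11% of all probes, and the same sign on 9 or 10 arrays for 0 of 10 against 8.9%. Every family probe had a ratio under 0.1 in size, as did 77.4% of all probes. The 95% intervals of the 10 probes reached from -0.21 to 0.22 on the log2 scale. The fit treats the 10 ratios of a probe as independent although each mouse contributes to 2. With the mouse as a random block, and dye and array in the model, 1294 of all probes were called and 0 of the family. A fit with 1 value per mouse also gives up the pairing of WT and TG within arrays. It called 24 of all probes (11 after the exchange) and again 0 of the family.

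**Figure D1:**
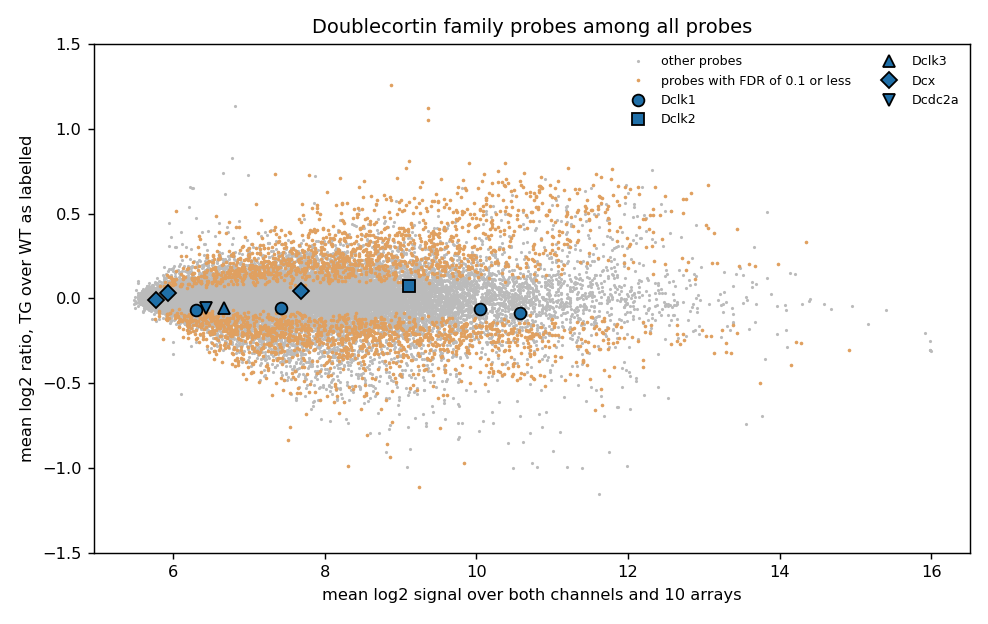
Mean log2 ratio of TG over WT as labelled (y axis) against the mean log2 signal over both channels and 10 arrays (x axis) for all 41174 probes, with the 3053 probes at an FDR of 0.1 or less in orange and the 10 family probes as blue symbols by gene. The family probes lie between -0.085 and 0.073, and none is orange.

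Detection was read against 314 negative control spots, whose 95th percentile was 61.8 to 80.2 in Cy3 and 40 to 45.7 in Cy5. Both channels exceeded it on all 10 arrays for 9 of the 10 family probes, against 33790 of all 41174 probes. The exception was the Dcx probe A_51_P289097, which passed on 2 of 10 arrays. By the scanner software's own call of a spot well above background, 8 of 10 family probes passed on all arrays, and the Dcx probe A_52_P506493 passed on 1. No family probe was saturated in any channel. Signals were used without background correction, so the dim probes of the family carry a share of background in both channels, and their ratios are pulled towards 0 by construction.

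The transgene's own gene, Dclk1, was measured by 4 probes along chromosome 3, in coordinates of the scanner files, whose genome build is not stated in the sources used here. Probe A_52_P217807 matched 55015180 to 55085325 and probe A_52_P21628 matched 55151310 to 55167952. Their spans of 70146 and 16643 bases are far longer than an oligonucleotide, so both cross introns. Probes A_52_P563818 (55170678 to 55170737) and A_51_P270355 (55170871 to 55170930) are single stretches of 60 bases at the far end. The files do not give exon or UTR annotation or the probe sequences.

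Signals of the 2 probes at the far end were well clear of background. Probe A_52_P563818 had mean pixel intensities from 1002 to 2607 (median 1461) in the 10 WT channels and from 636 to 3687 (median 1607) in the 10 TG channels. Probe A_51_P270355 had 792 to 1580 (median 958) in WT and 651 to 2070 (median 1103) in TG. The 2 probes upstream were dimmer, with medians of 169 in WT and 174 in TG for A_52_P21628, and of 78.9 and 85.4 for A_52_P217807. WT and TG channels overlapped for all 4 probes before normalization.

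All 4 Dclk1 probes named by symbol had a mean ratio slightly below 0 as labelled, and none of their intervals left out 0. For probe A_52_P563818 the ratio averaged -0.085 on the log2 scale (SE 0.057, n = 10 arrays, 95% interval -0.21 to 0.041, FDR 0.492). Its ratios ran from -0.36 on WT4/TG2 to 0.21 on TG4/WT3, with a median of -0.092, and 7 of 10 were negative. The scanner software marked 2 of its spots as outliers, on WT3/TG5 and TG2/WT1, and without them the mean was -0.043.

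Probe A_52_P217807 gave -0.068 (SE 0.052, interval -0.18 to 0.047, FDR 0.568). Its ratios ran from -0.31 to 0.23 with a median of -0.084, and 7 of 10 were negative. Probe A_51_P270355 gave -0.064 (SE 0.047, interval -0.17 to 0.039, FDR 0.536), with ratios from -0.29 to 0.20, a median of -0.086 and 6 of 10 negative. Probe A_52_P21628 gave -0.056 (SE 0.062, interval -0.19 to 0.080, FDR 0.729), with ratios from -0.31 to 0.30, a median of -0.12 and 6 of 10 negative.

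Expressed as a fold, the highest upper bound among the 4 Dclk1 probes was 1.06 as labelled, for A_52_P21628. With the sign of every ratio turned, it was 1.16, for A_52_P563818. These bounds rest on the 10 arrays as independent values. With 1 value per mouse, which also gives up the pairing within arrays, the SE of the log2 difference was larger. It rose from 0.057 to 0.097 for A_52_P563818 and from 0.062 to 0.090 for A_52_P21628. The bounds hold for the sequence that these 4 probes detect, and they leave out the Dclk1 cDNA probe without a symbol that is given below. No background was subtracted, so the ratios of the dimmer probes are pulled towards 0. For the dim probe A_52_P217807, the scanner software's background-corrected ratio was -0.22 (FDR 0.463).

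**Figure D2:**
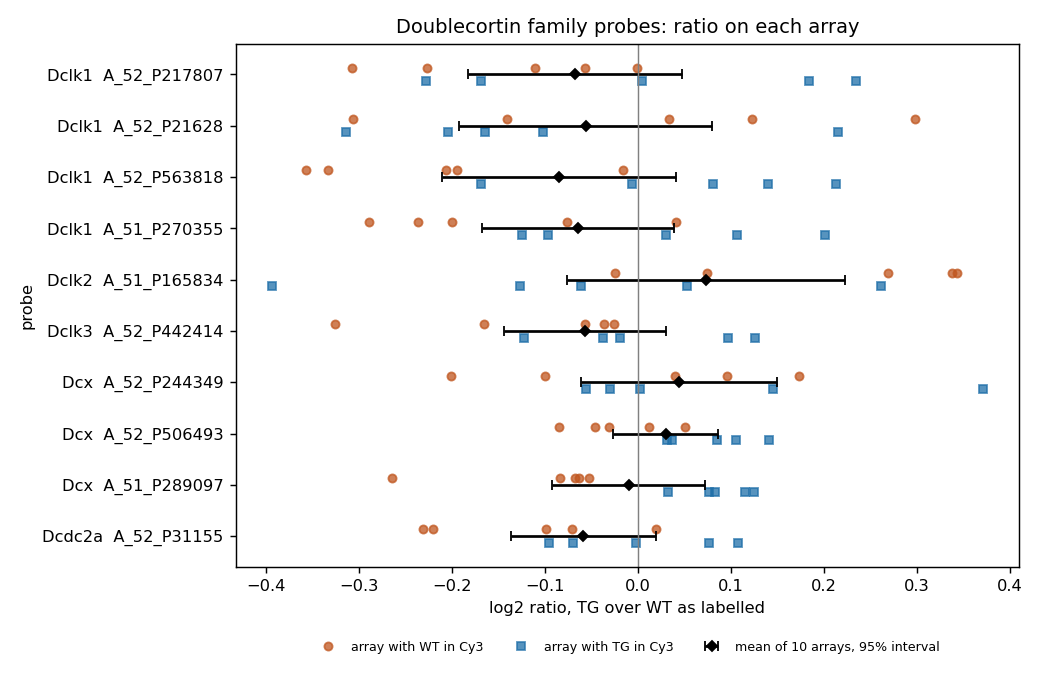
Log2 ratio of TG over WT as labelled (x axis) on each of 10 arrays for the 10 family probes (y axis), with circles for arrays with WT in Cy3, squares for arrays with TG in Cy3, and diamonds with bars for the mean and its 95% interval. Every bar crosses 0, and for the Dcx probe A_51_P289097 all circles lie below 0 and all squares above it.

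The level of a mouse is the mean of its 2 channels on the log2 scale, after normalization of all channels to a common scale. For Dclk1 probe A_52_P563818 the WT mice WT1, WT3, WT4, WT5 and WT6 had 10.69, 10.44, 10.70, 10.62 and 10.65. The TG mice TG1 to TG5 had 10.63, 10.36, 10.65, 10.77 and 10.27. The highest mouse and the lowest mouse were both TG, and the SD was 0.104 in WT and 0.211 in TG (n = 5 each). For none of the 10 family probes did WT and TG mice separate, as labelled or after the exchange. The share of all probes whose mice separate was not computed, so this count has no background to be read against.

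For probe A_51_P270355 the WT mice had 10.16, 10.13, 9.91, 10.10 and 10.12 in the same order, and TG1 to TG5 had 10.01, 10.05, 9.98, 10.04 and 10.02. Of the WT mice, 4 lay above every TG mouse and WT4 lay below every TG mouse, so the groups overlapped through WT4 alone. Without both arrays of WT4 the mean log2 ratio was -0.11 (limma FDR 0.296). The other 2 Dclk1 probes overlapped more widely: TG4 was lowest of all mice on both, at 6.07 for A_52_P217807 and 7.19 for A_52_P21628, and WT5 was highest on both, at 6.45 and 7.64. Without both arrays of TG4 their mean ratios were -0.018 and -0.019.

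**Figure D3:**
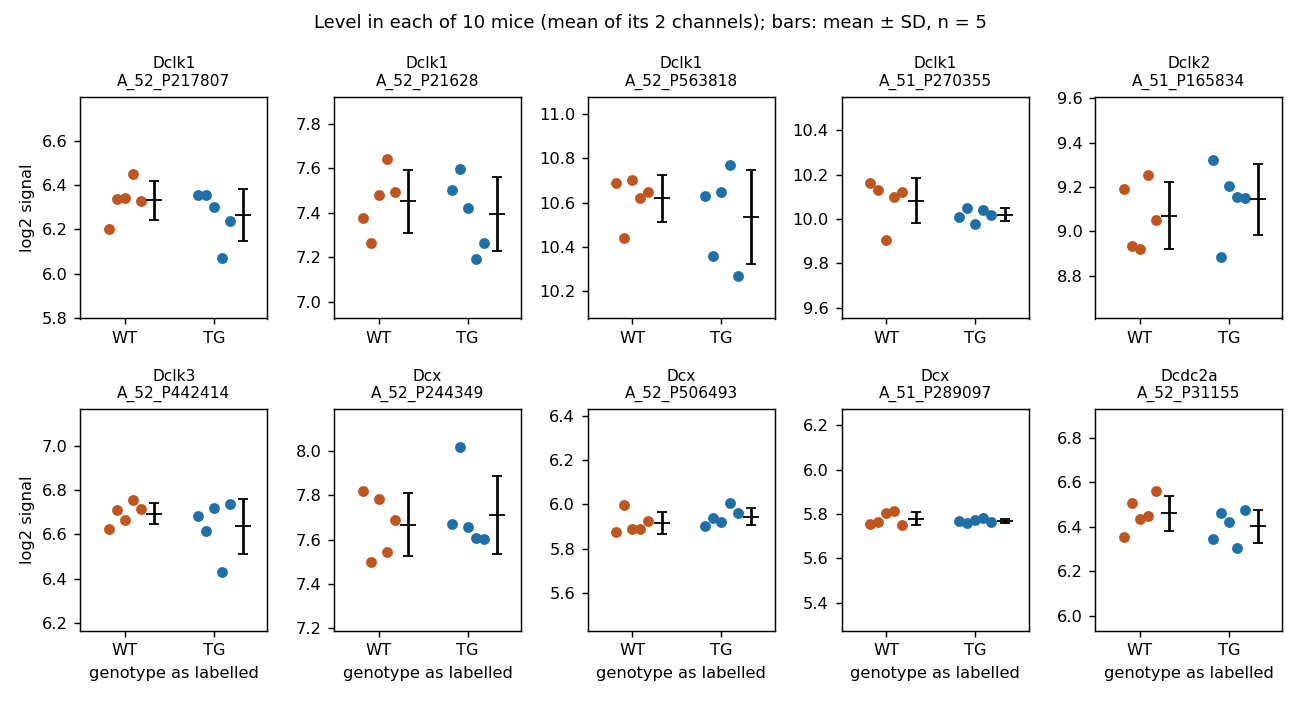
Level of each mouse on the log2 scale (y axis, mean of its Cy3 and Cy5 channel) by genotype as labelled (x axis), with 1 panel for each family probe and bars for the mean ± SD of 5 mice. WT and TG mice overlap in all 10 panels, for Dclk1 A_51_P270355 through WT4 at 9.91 alone.

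The 4 Dclk1 probes were also set against each other, since a transcript with only some parts of the gene would reach some probes and not others. Over all 9 pairs of probes within Dclk1 and within Dcx, the difference in log2 ratio lay between -0.020 and 0.054. None of the 9 differences passed an exact two-sided permutation test that turns the sign of the difference on each array (adjusted p = 0.959 for every pair, smallest p that 10 arrays can give 0.00195). For A_52_P563818 and A_51_P270355, which lie side by side, the difference was -0.020 (SE 0.068, n = 10). Across the 10 arrays the ratios of the Dclk1 probes did not move as a block: Pearson correlations between pairs of them ran from -0.46 to 0.49, a description over arrays that share mice.

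Between the first and the last Dclk1 probe lie 2 further probes to which no gene symbol is attached, and a further probe follows 2300 bases past the last one. They are no members by symbol and were looked up after the family's values were seen, as all probes within 10 kb of a member's stretch. The cDNA of probe A_52_P26991 (55102103 to 55102162) is described in the files as double cortin and calcium/calmodulin-dependent protein kinase-like 1, an older name of Dclk1. Its mean log2 ratio was -0.13 (SE 0.049, limma FDR 0.185), negative on 9 of 10 arrays, and it was not called.

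Probe A_52_P1164065 (55110807 to 55110866), 95.6 kb from the start of the first Dclk1 probe, stood apart from its neighbours. It represents an unclassifiable full-length cDNA of adult mouse cortex. It was present on all 10 arrays, and its mean log2 ratio was -0.56 (SE 0.078, 95% interval -0.73 to -0.39, limma FDR 0.00828). On arrays with WT in Cy3 its ratios were -0.88, -0.65, -0.48, -0.59 and -0.46 (WT1/TG4, WT3/TG5, WT4/TG2, WT5/TG3 and WT6/TG1). On arrays with TG in Cy3 they were -0.64, -0.21, -0.57, -1.01 and -0.11 (TG1/WT5, TG2/WT1, TG3/WT4, TG4/WT3 and TG5/WT6). It was thus lower in TG as labelled on every array, and it would be higher in TG on every array if the orientations were exchanged.

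Both arrays of TG4 as labelled gave the most negative ratios of this probe, and without them the mean was -0.46 (limma FDR 0.0746). After the exchange these 2 arrays would share WT5 instead. With 1 value per mouse the difference kept its size of -0.56 but was not called (SE 0.144, limma FDR 0.286). With the mouse as a random block, which keeps the array in the model, it was called (limma FDR 0.0286). The probe past the last Dclk1 probe, A_51_P193036, had a ratio of -0.0093 (FDR 0.967). The files do not say which transcript of the stretch the cortex cDNA belongs to, and its relation to Dclk1 was not tested.

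**Figure D4:**
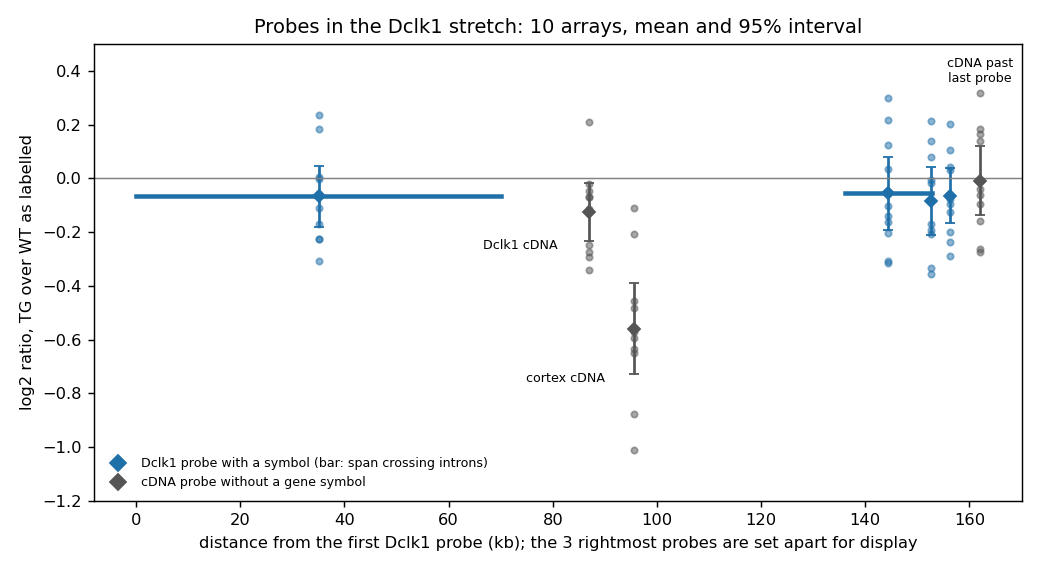
Log2 ratio of TG over WT as labelled (y axis) against the distance in kb from the first Dclk1 probe (x axis), with dots for the 10 arrays, diamonds and bars for the mean and its 95% interval, and blue for Dclk1 probes named by symbol. The cortex cDNA probe at 95.6 kb lies at -0.56, below the 6 other probes, whose means are between -0.13 and -0.0093.

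Dclk2, the closest relative of Dclk1 with both kinds of domain, had 1 probe, A_51_P165834, on chromosome 3 at 86530560 to 86530619. Its signal was 351 to 882 (median 494) in WT and 401 to 1222 (median 577) in TG channels. The mean log2 ratio was 0.073 (SE 0.068, interval -0.076 to 0.22, FDR 0.656), with ratios from -0.39 on TG2/WT1 to 0.34 on WT6/TG1 and a median of 0.064. Its SD over arrays, 0.236, was the widest of the family. The WT mice had levels of 9.19, 8.93, 8.92, 9.26 and 9.05 in the order given above, and TG1 to TG5 had 9.32, 8.89, 9.21, 9.16 and 9.15. TG1 was highest and TG2 was lowest of all mice. The scanner software marked its spot on TG2/WT1 as an outlier, and without that spot the mean ratio was 0.13 (limma FDR 0.255).

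Dclk3 had 1 probe, A_52_P442414, on chromosome 9 at 111524013 to 111526238. Signals were 67.9 to 150 (median 102) in WT and 75.2 to 154 (median 104) in TG. The mean log2 ratio was -0.057 (SE 0.040, interval -0.14 to 0.030, FDR 0.510), with ratios from -0.33 to 0.13 and 8 of 10 negative. The WT mice lay between 6.63 and 6.75, and the TG mice lay between 6.43 and 6.74, with TG4 lowest. Without both arrays of TG4 the mean ratio was -0.015.

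Dcx, the marker of newborn neurons, had 3 probes on the X chromosome, and their coordinates run in descending order. Probe A_52_P244349 (137296358 to 137296417) was the clearest over background, with 155 to 311 (median 194) in WT and 135 to 363 (median 213) in TG channels. Its mean log2 ratio was 0.044 (SE 0.048, interval -0.061 to 0.15, FDR 0.723), and its ratios ran from -0.20 on WT6/TG1 to 0.37 on TG1/WT5 with a median of 0.021.

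The WT mice had levels of 7.82, 7.50, 7.79, 7.54 and 7.69 on this probe, and TG1 to TG5 had 7.67, 8.02, 7.66, 7.61 and 7.61. TG2 was highest of all mice, and the other 4 TG mice lay within the WT range. The 2 remaining Dcx probes gave little signal above the negative controls. Probe A_52_P506493 (137301397 to 137301456) had a mean ratio of 0.030 (SE 0.026, FDR 0.619), and its medians were 60.1 in WT and 61.2 in TG channels. Probe A_51_P289097 (137303569 to 137303628) had a mean ratio of -0.0099 (SE 0.038, FDR 0.944), with medians of 53.5 and 53.8, so that it sets no bound on Dcx. The scanner software's background-corrected ratio of A_52_P506493 was 0.20 (FDR 0.380).

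Dcdc2a had 1 probe, A_52_P31155, on chromosome 13 at 24589984 to 24599168, with 55.6 to 128 (median 85.6) in WT and 67.4 to 115 (median 89.4) in TG channels. The mean log2 ratio was -0.058 (SE 0.036, interval -0.14 to 0.020, FDR 0.429), with ratios from -0.23 to 0.11 and 7 of 10 negative. The WT mice lay between 6.35 and 6.56, and the TG mice lay between 6.31 and 6.47. With the scanner software's background correction the ratio was -0.15 (FDR 0.269), and that of Dclk3 was -0.11 (FDR 0.415).

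In a fit with a term for dye orientation, the dye term was larger in size than the mean ratio of TG over WT for 9 of 10 family probes. This is a description without a test. The share over all probes was not computed, so it is not shown to be particular to the family. The dye term of 2 of 10 family probes had an FDR of 0.1 or less, against 9294 of all probes (22.6%). They were Dcx A_51_P289097 (FDR 0.0228) and Dclk1 A_52_P563818 (FDR 0.0547). For the Dclk1 probe the mean ratio was -0.22 (SD 0.136, n = 5) with WT in Cy3 and 0.052 (SD 0.147, n = 5) with TG in Cy3. For the Dcx probe it was -0.11 (SD 0.089) and 0.086 (SD 0.037). Each group of 5 arrays holds all 10 mice, so the mean over 10 arrays has the dye balanced. With the dye term in the fit, 0 of 10 family probes were called and the lowest FDR was 0.275, for Dclk1 A_52_P563818.

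The genes whose ratios were most like those of the family over the 10 arrays were ranked by Pearson correlation among 21507 named probes of other genes present on all arrays. For the Dclk1 probes the closest were Krt222 (r = 0.96, for A_52_P217807), Tmem44 (0.93, for A_52_P21628), Dqx1 (0.98, for A_52_P563818) and Ids (0.92, for A_51_P270355), which was followed by Camk2d (0.92), a kinase subunit. For Dclk2 they were Exoc8 (0.96), Ap1m1 (0.95) and Pomt1 (0.94), and for Dclk3 they were Cmtr2 (0.98), Lyn (0.97) and Mphosph10 (0.97). Dcx probe A_52_P244349 was closest to Tbx15 (0.93), Fntb (0.93) and Kif1c (0.92), and Dcdc2a was closest to Fgf14 (0.95). Within the family the highest correlation between genes was 0.80, for Dclk1 A_52_P217807 and Dclk3. With 10 arrays and this many candidates, such values describe these arrays only, and the ratios share mice, dye and slide.

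Of the other doublecortin-domain genes looked for, 2 of 5 had a probe, Rp1 and Dcdc5, and 0 of 2 probes were called. Genes whose products bind or act with doublecortin proteins in neuronal migration were measured by 47 probes of 30 genes, of which 10 (21.3%) were called, 4 higher and 6 lower in TG as labelled, against 7.41% of all probes (3.66% higher and 3.76% lower). Their median log2 ratio was -0.042. This list and the next were chosen with earlier results of these data known, so their called shares are not independent evidence. Of the called probes, Tubb3, the neuronal β-tubulin, had 0.39 (SE 0.091, limma FDR 0.0452), positive on 9 of 10 arrays. Dab1, the adaptor of reelin signaling, had a probe at 0.36 (SE 0.065, FDR 0.0216) that was positive on 10 of 10 arrays, while its other 3 probes lay between -0.079 and 0.046 and were not called. Usp9x, a deubiquitinase that binds doublecortin, had -0.35 (SE 0.087, FDR 0.0534), negative on 9 of 10 arrays.

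The list of immature neuron genes had 29 probes of 16 genes, of which 5 (17.2%) were called, all higher in TG as labelled. Of all probes, 7.41% were called in either direction and 3.66% were called higher. Whether the listed genes are particular to immature neurons was not tested. The median log2 ratio over the 29 was 0.078. Stmn1, a microtubule-destabilizing protein, had 0.26 (SE 0.055, FDR 0.0360), Igfbpl1 had 0.12 (SE 0.027, FDR 0.0417) and was positive on 10 of 10 arrays, and Elavl4, a neuronal RNA-binding protein, had 0.20 (SE 0.045, FDR 0.0434) on 1 probe and -0.021 (FDR 0.955) on the other. The probe furthest from 0 in this list was not called and lay below 0: Elavl2, named outside the rule after its values were seen, had -0.52 (SE 0.201, limma FDR 0.180), negative on 8 of 10 arrays, and its other probe had -0.16 (FDR 0.349). With 1 value per mouse 0 probes of either list were called, and with the mouse as a random block 2 of the migration list and 4 of the immature neuron list were. Without both arrays of a mouse the 2 counts were 0 and 1 (WT4), 1 and 0 (WT5), 1 and 0 (TG5), 1 and 1 (WT3), 1 and 1 (TG3), 3 and 2 (TG2), 3 and 3 (TG1), 5 and 6 (WT1), 8 and 4 (WT6), and 7 and 6 (TG4). In whole hippocampus, fewer cells of a type and less RNA per cell cannot be told apart. Whether these lists differ from the family was not tested.

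Markers of the tissue and of other cell types were read on the same arrays, against the same 7.41% of all probes called. With 1 value per mouse, each of the marker probes named here and below as called lost its call (limma FDR of at least 0.253). Hippocampal markers had 14 probes, of which 13 were present and 1 (7.14%) was called, C1ql2 of dentate granule cells at -0.30 (SE 0.050, FDR 0.0167). Thalamus markers had 2 of 11 probes (18.2%) called, both of Zic1 (0.30 and 0.28, FDR 0.0374 and 0.0729), with summed signals of 1746 to 1930 in WT and 1672 to 2026 in TG mice. Choroid plexus markers had 0 of 9 called, with sums of 1058 to 2295 and 935 to 2237. Oligodendrocyte markers had 1 of 12 (8.33%) called, a probe of Mbp at -0.22 (FDR 0.0543) beside 2 others of this gene that were not called, a median log2 ratio of -0.14, and sums of 21300 to 27500 and 18370 to 22330.

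Astrocyte markers had 3 of 9 (33.3%) called, Aldh1l1 at 0.23 (FDR 0.0291) and 2 of the 3 probes of Aqp4 at 0.42 and 0.31 (FDR 0.0480 and 0.0569), with sums of 4717 to 5332 and 5158 to 6352. Microglia markers had 3 of 11 (27.3%) called, P2ry12 at -0.29 (FDR 0.0351), Tmem119 at 0.13 (FDR 0.0642) and Aif1 at 0.32 (FDR 0.0838), with sums of 3312 to 3886 and 3504 to 3746. Blood markers had 0 of 2 called. The part of cell makeup in the ratio of the cortex cDNA probe or of the neuronal genes was not tested.

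**Figure D5:**
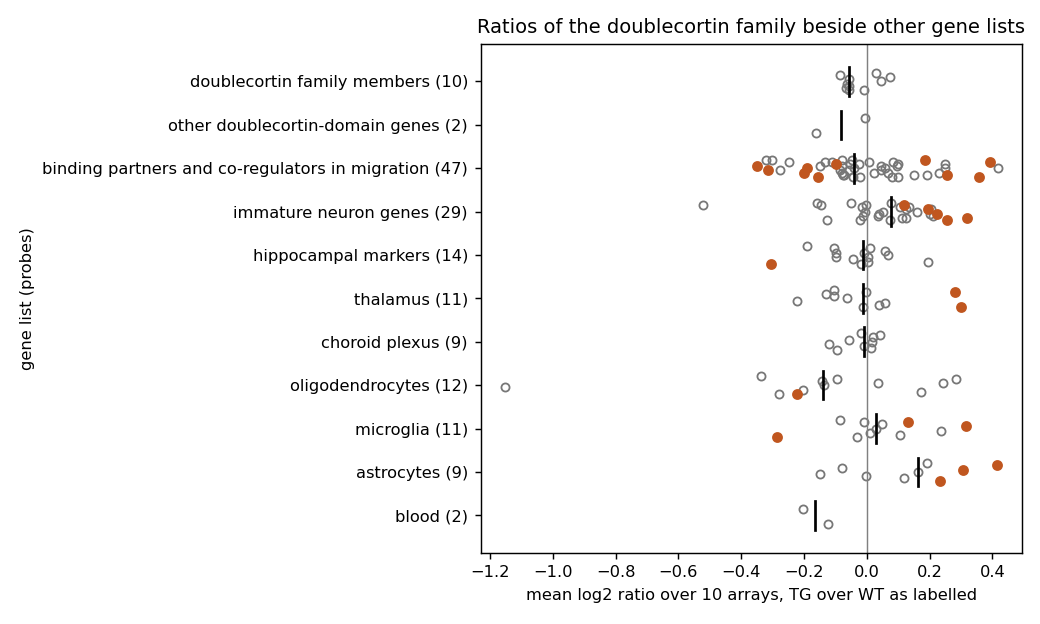
Mean log2 ratio over 10 arrays of TG over WT as labelled (x axis) for each probe of the doublecortin family and of the other gene lists (y axis, number of probes in parentheses), with filled circles for an FDR of 0.1 or less and black bars for the list median. The family has no filled circle among its 10 probes, and the migration list has 10 of 47, against 7.41% of all probes. Whether the lists differ from the family was not tested.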

How the data were processed

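Per the file headers, Agilent Feature Extraction 8.5.1.1 gave the mean pixel intensity of each spot, which the authors deposited without normalization beside local backgrounds and flags, and a log10 ratio of Cy5 over Cy3 corrected for background and dye, used as an alternative. Each array's mean intensities went through loess, with no background subtracted and control spots at weight 0. Spots of a probe were averaged, log2 ratios were turned to TG over WT as labelled, and an intercept was fitted with limma 3.58.1 in R 4.3.3. P values were adjusted by Benjamini and Hochberg over 41174 probes, with an FDR limit of 0.1. Levels per mouse came from channels scaled with Aquantile. Nothing was filtered. Scripts were tested on simulated data. Of the probes, 22072 were named through their accession in the reference table, 2259 through their description, and 16843 not at all. Named genes are all member probes, the 3 probes of smallest p past the FDR in each list, and like genes by correlation. The members and lists were chosen with earlier results of these data known, and the probes near Dclk1 and their alternatives after seeing the data. Alternatives covered background, normalization, models, mice and left-out arrays. ABI, Illumina and the other platforms were not used here: no ABI identifier named a member, and Illumina columns could not be paired with mice. Some values are not reported here.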

Additional observations from a re-analysis of the deposited data

Results flagged for a closer look

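Of 30 sets of values examined for the 10 probes (10 arrays, 5 WT and 5 TG mice each), 2 held a mouse whose gap to its nearest neighbour took up most of the range of its group, where chance gives about 1 in 20. On Dclk1 probe A_51_P270355, WT4 had a log2 level of 9.91, and the nearest WT mouse had 10.10 (gap 0.784 of the range). On Dcx probe A_52_P244349, TG2 had 8.02, and the nearest TG mouse had 7.67 (gap 0.841 of the range). Both hold for the mice as labelled.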

How the results depend on the processing

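The count of 0 called family probes was the same under every alternative run. Over 329 values of the 10 probes under 33 alternatives, 320 kept their sign, the lowest FDR was 0.248, and 5 had an unadjusted p under 0.05: 3 for Dclk2 and 1 each for Dclk1 A_51_P270355 and Dcdc2a. No difference between probes of 1 gene passed the test under median pixel intensities, median centring or normexp, and detection gave 8 of 10 probes at the 99th percentile. Median centring in place of loess turned the ratio of Dclk1 A_52_P563818 to 0.033, of Dclk1 A_51_P270355 to 0.043, of Dcx A_52_P506493 to -0.056 and of A_51_P193036 to 0.11. Robust regression turned Dcx A_51_P289097 to 0.00091. Left-out arrays gave -0.025 to 0.018 for Dcx A_51_P289097 and -0.046 to 0.020 for A_51_P193036, and left-out mice gave -0.019 to 0.011 and -0.074 to 0.029, and -0.0030 to 0.080 for Dcx A_52_P244349. The causes were not tested.

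The background count of 3053 called probes was 1335 with median centring, 1203 at an FDR of 0.05, 1294 with the mouse as a random block and 24 with 1 value per mouse (11 after the exchange of orientations). It ranged from 1117 to 3404 without single arrays and from 282 to 3199 without both arrays of a mouse. It was 1117 without TG1/WT5, 1207 without WT4/TG2, 1219 without WT3/TG5, 1670 without TG4/WT3 and 1851 without TG3/WT4. Without both arrays of a mouse it was 282 (WT4), 366 (WT3), 812 (TG5), 827 (WT5), 1023 (TG2), 1054 (TG3), 1270 (TG1) and 2016 (TG4).

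Mouse numbers occur in both genotypes for 4 pairs. Same-numbered mice correlated at -0.25 to -0.10 in their deviations from the group means. This was computed only as labelled, and the labels are in doubt, so it does not settle whether same-numbered mice are related. With the number as a replicate block, 0 probes were called by limma (2545 at an unadjusted p under 0.05), Dcx A_52_P244349 turned to -0.028 and A_51_P193036 to 0.0090. The cortex cDNA probe of the Dclk1 stretch was called under 11 of 13 alternatives of processing or model, and without each single array or mouse (FDR 0.0071 to 0.0746). It was not called with 1 value per mouse or with the number as a replicate block (-0.61, FDR 0.702). The comparison on ABI arrays was not run.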
